A study of Homo sapiens with 10 samples.

Results

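Genes of cholesterol and fatty acid synthesis were examined in subclones of U87MG, an established line of human glioma that grows attached to plastic. The genes were chosen by name: 37 symbols (MSMO1 under a current and an older one) of enzymes, regulators and transporters of these pathways were looked up among the 11880 gene symbols of the deposited table, and 33 were found. ACSS2, STARD4 and HSD17B7 were not analysed here, and MSMO1 is listed only as SC4MOL. By role, 16 of the 33 belong to the sterol branch, 12 to the fatty acid branch and 5 to the regulators and transporters.

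Per the labels, each subclone (1, 2, 3, 5, 6, 8, 9, 10, 11 and 12) grew from a single cell of the parental line, and all 10 were kept in the same serum-containing medium and collected during exponential growth. Serum brings lipoproteins and fatty acids, and all the subclones shared it. Each subclone was hybridised to 1 array, so that no value given for a subclone has an error of its own, and p-values over the 10 subclones may in part reflect technical differences. All 10 formed 1 untreated group. The question was therefore how far these genes differ between subclones, and which of them differ together. Every value is a log2 expression value from the authors' RMA normalization, so that a difference of 1 is a 2-fold difference, and values were compared only within a gene. The array of subclone 10 stood apart, with an upper quartile of 6.75 against 7.02 in subclone 11 and 7.17 to 7.36 in the other 8, and its tested genes had a median deviation of -0.29 from their means. Of 8 markers used to check the line, CHI3L1 lay between 10.17 and 12.97, CD44 between 9.44 and 10.24, the neural progenitor gene NES between 5.14 and 7.55 and EGFR between 4.53 and 5.44. The glial and neural genes GFAP, S100B, SOX2 and OLIG2 lay at or below 4.23 in all 10 subclones. All 8 measured markers of other cell types (blood, endothelial, epithelial, liver, myelin) stayed at or below 4.56.

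Cells build cholesterol from acetyl-CoA by way of mevalonate, squalene and lanosterol, and long-chain fatty acids from acetyl-CoA by way of malonyl-CoA. Both routes are switched on by the sterol regulatory element binding proteins, encoded by SREBF1 and SREBF2, which SCAP escorts out of the endoplasmic reticulum when membrane cholesterol is low. INSIG1 holds SCAP back when sterols are plentiful and is itself a target of these factors. Glioma cells are known for a high demand for cholesterol and unsaturated fatty acids.

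Of the 33 genes, 30 reached the median of all values in the table, 5.00, in at least 1 subclone and were tested with 7095 such genes. The other 3 lay below it in every subclone: HMGCS1, which makes the precursor of mevalonate (3.89 to 4.53), SC5DL, a sterol desaturase (3.66 to 4.37), and ME1, a supplier of NADPH (3.19 to 3.44). RMA compresses such low values, so that differences among them are understated.

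Most members differed by at least 2-fold between some subclones, a share near that of all tested genes. A 2-fold range between the lowest and the highest subclone was reached by 21 of 30 members, against 63.3% of all tested genes, and a 4-fold range by 2 of 30, against 12.9%. Each array measured the RNA of a whole culture, so fewer expressing cells and less RNA per cell cannot be told apart. By limma's robust test of each gene's variance against genes of like mean expression, 0 of 30 members passed over all genes, against 0% of all tested genes. At an unadjusted p under 0.05 it found 0 members, against 4.93% of all tested genes, and the non-robust version also found 0, against 4.52%. A chi-square test against the same trend called 3 members (SCD, INSIG1 and FADS1) of 30, against 18.8% of all tested genes, with 8 at an unadjusted p under 0.05, against 27.4%.

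**Figure D1:**
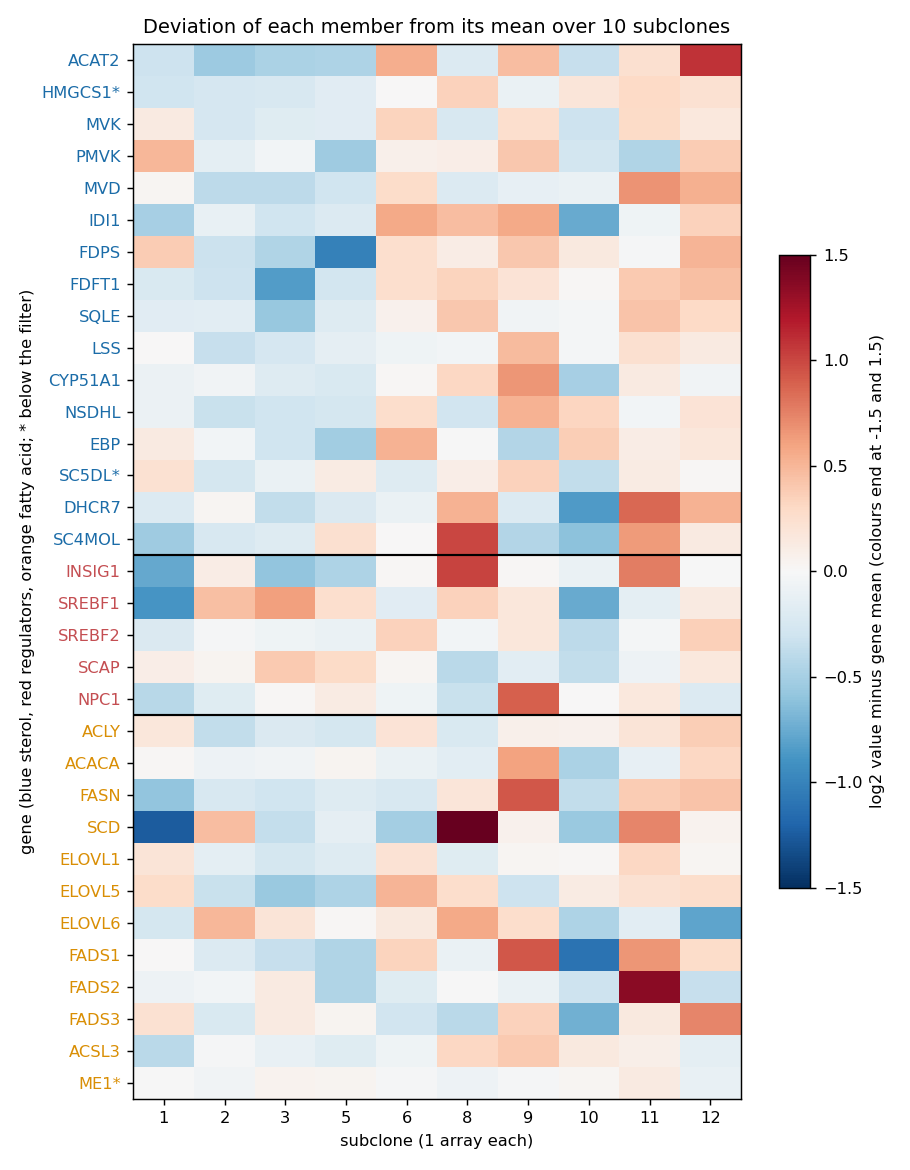
Each cell gives the log2 value of a gene (row) in a subclone (column) minus the gene's mean over the 10 subclones; red is above and blue below the mean, lines part the branches, and asterisks mark the 3 genes below the filter. SCD shows the widest range, with 5.62 (subclone 1) to 8.39 (subclone 8), and the sterol rows are mostly blue in subclones 2, 3 and 5.

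In the sterol branch, the members of subclones 2, 3 and 5 lay low together. Only 1 of 14 tested members was above its own mean in subclone 2, 0 in subclone 3 and 1 in subclone 5, whereas over all tested genes 58.1%, 57.6% and 56.5% were above their means there. In subclone 12, 13 of 14 were above their means, against 53.8% of all tested genes, and in subclone 6, 12 of 14, against 52.5%. The mean deviation of the branch was -0.23, -0.35 and -0.31 in subclones 2, 3 and 5, and 0.35, 0.24, 0.22, 0.19 and 0.16 in subclones 12, 11, 6, 9 and 8. These are descriptions of single arrays and were not tested.

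The early steps had their highest values in different subclones. ACAT2, the cytosolic thiolase that joins 2 acetyl-CoA molecules, had a lowest value of 4.53 in subclone 2, a median of 4.83 and a highest value of 6.17 in subclone 12. Subclones 12, 6, 9 and 11 lay above 5.00 and the other 6 below it. Of the kinases and the decarboxylase that turn mevalonate into isopentenyl diphosphate, MVK spanned 4.77 (subclone 10) to 5.41 (subclone 6), PMVK 6.78 (subclone 5) to 7.81 (subclone 1), and MVD 4.12 (subclone 3) to 5.19 (subclone 11). IDI1, which isomerises isopentenyl diphosphate, had a lowest value of 6.78 in subclone 10, a median of 7.44 and a highest value of 8.11 in subclone 6, with subclones 9, 8 and 12 (8.10, 7.99 and 7.88) next. FDPS, the farnesyl diphosphate synthase, ran from 7.12 in subclone 5 through a median of 8.26 to 8.64 in subclone 12. In subclone 5 it lay 1.01 below its mean, the farthest of the 14 tested sterol genes there.

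FDFT1 and SQLE, the enzymes that make squalene and oxidise it, followed nearly the same order of subclones. FDFT1 had a lowest value of 8.57 in subclone 3, a median of 9.52 and a highest value of 9.86 in subclone 12. SQLE had a lowest value of 6.38 in subclone 3, a median of 6.90 and a highest value of 7.37 in subclone 11. For both genes, subclones 8, 11 and 12 were the 3 highest and subclone 3 was the lowest. Their Pearson correlation over the 10 subclones was the highest among the tested members (r = 0.93, permutation p = 5.0e-05; Spearman's rho = 0.92, permutation p = 0.00044), and r was 0.87 without subclones 3 and 11, the farthest from the median of SQLE (limma, adjusted p = 0.76 over all tested genes). The permutation p-values are for a single pair and do not allow for its choice as the highest. FDFT1 and SQLE both lie on chromosome 8, and whether they share its copy number was not tested.

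The enzymes after lanosterol formed no single pattern. LSS, the cyclase that makes lanosterol, spanned 4.62 (subclone 2) to 5.43 (subclone 9), and CYP51A1, which demethylates lanosterol, 6.32 (subclone 10) to 7.48 (subclone 9). SC4MOL, a methylsterol oxidase, had a lowest value of 7.23 in subclone 10, a median of 7.76 and a highest value of 8.86 in subclone 8, followed by 8.49 in subclone 11. DHCR7, the reductase that completes cholesterol, had a lowest value of 5.87 in subclone 10, a median of 6.56 and a highest value of 7.58 in subclone 11, followed by 7.24 in subclones 8 and 12. NSDHL, a sterol dehydrogenase, spanned 6.31 (subclone 2) to 7.18 (subclone 9), and EBP, a sterol isomerase, 5.18 (subclone 5) to 6.22 (subclone 6). These X-linked enzymes stood at opposite ends in subclone 9, where NSDHL was highest and EBP second lowest.

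In the fatty acid branch the widest range of all members belonged to SCD, the desaturase that makes monounsaturated fatty acids. Its lowest value was 5.62 in subclone 1, its median 6.83 and its highest value 8.39 in subclone 8, a 6.80-fold range, and subclones 11 (7.61) and 2 (7.33) came next. The SD of SCD, 0.77, lay at percentile 93.1 of all tested genes. FASN, the fatty acid synthase, had a lowest value of 4.25 in subclone 1, a median of 4.63 and a highest value of 5.76 in subclone 9, and only subclones 8, 9, 11 and 12 reached the table's median. ACLY and ACACA, which supply its substrates acetyl-CoA and malonyl-CoA, spanned 8.98 (subclone 2) to 9.72 (subclone 12) and 7.35 (subclone 10) to 8.42 (subclone 9).

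The desaturases of polyunsaturated fatty acids, FADS1, FADS2 and FADS3, are adjacent genes on chromosome 11 with 0 protein-coding genes between neighbours, and they did not share a pattern. FADS1 had a lowest value of 7.18 in subclone 10, a median of 8.23 and a highest value of 9.21 in subclone 9, with 8.94 in subclone 11. FADS2 lay between 4.32 and 4.90 in 9 subclones and at 6.12 in subclone 11. FADS3 had a lowest value of 6.80 in subclone 10, a median of 7.62 and a highest value of 8.26 in subclone 12. Over the 10 subclones the correlations were 0.61 for FADS1 with FADS3, 0.43 for FADS1 with FADS2 and 0.09 for FADS2 with FADS3, as a description of the same 10 arrays.

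Among the genes of chain elongation and activation, the SD was 0.43 for ELOVL6 and 0.38 for ELOVL5, against 0.24 for ACSL3 and 0.20 for ELOVL1. ELOVL1 spanned 8.26 (subclone 3) to 8.84 (subclone 11), and ELOVL5 8.83 (subclone 3) to 9.90 (subclone 6). ELOVL6, which elongates saturated and monounsaturated chains, had a lowest value of 4.93 in subclone 12, a median of 5.81 and a highest value of 6.30 in subclone 8. Subclone 12 was thus the lowest for ELOVL6 and the highest for ACLY, FADS3, ACAT2, FDPS and FDFT1. ACSL3, which activates fatty acids on lipid droplets, spanned 8.14 (subclone 1) to 8.94 (subclone 9).

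The regulators differed from each other. INSIG1 had a lowest value of 8.14 in subclone 1, a median of 8.92 and a highest value of 9.92 in subclone 8, followed by 9.68 in subclone 11. SREBF1 had a lowest value of 6.02 in subclone 1, a median of 7.05 and a highest value of 7.53 in subclone 3, with 6.15 in subclone 10. SREBF2 had a lowest value of 4.32 in subclone 10, a median of 4.68 and a highest value of 5.08 in subclone 12, followed by 5.06 in subclone 6, and only these 2 subclones reached the table's median. Subclone 3 was thus highest for SREBF1 but below the mean for 14 of the 14 tested sterol enzymes. SCAP spanned 7.19 (subclone 8) to 7.99 (subclone 3), and its values were lowest in the subclone where INSIG1 was highest. NPC1, which exports cholesterol from lysosomes, had a lowest value of 9.34 in subclone 1, a median of 9.72 and a highest value of 10.65 in subclone 9.

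**Figure D2:**
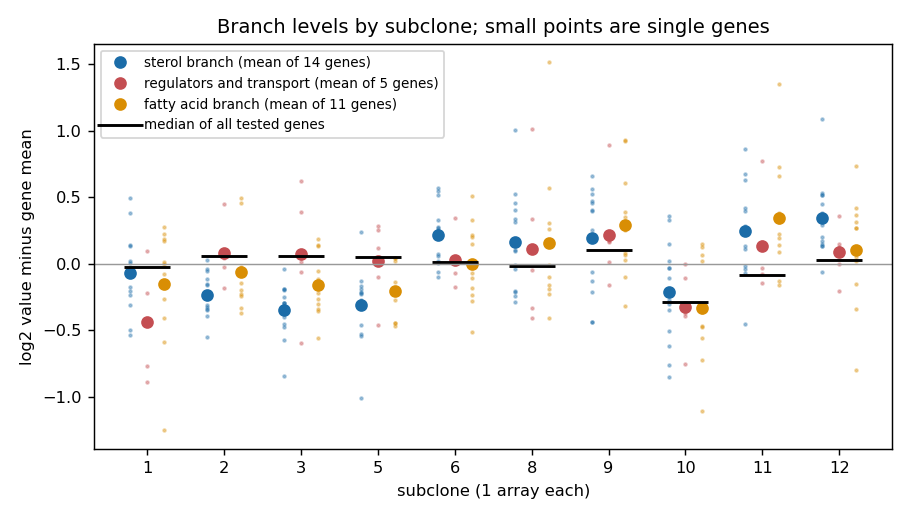
Large points give the mean log2 deviation of each branch from the gene means in each subclone, small points the single tested genes, and black bars the median deviation of all tested genes on that array. The sterol and fatty acid means lie below the bar in subclones 1, 2, 3 and 5 and above it in subclones 8, 9, 11 and 12. In subclone 10 all the branch means and the bar lie below 0.

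Compared branch by branch, the sterol and fatty acid means were both below 0 in subclones 1, 2, 3, 5 and 10. Both were high in subclones 8, 9, 11 and 12. In subclone 1 the sterol mean was -0.067 and the fatty acid mean -0.15. The fatty acid mean deviation reached 0.35 (subclone 11) and 0.29 (subclone 9) at one end, and -0.33 (subclone 10) and -0.20 (subclone 5) at the other. FADS2, which reached the filter only in subclone 11, lay 1.35 above its own mean there. The order of subclones 11 and 9 rests on this gene. The regulator mean was highest in subclone 9 (0.22) and lowest in subclone 1 (-0.44). With the median deviation of all tested genes taken off each array, the regulator mean was highest in subclone 11 (0.22, against 0.11 in subclone 9) and still lowest in subclone 1 (-0.42), and the fatty acid mean was lowest in subclone 5 (-0.25). Over the 10 subclones the branch means correlated with r = 0.80 for sterol with fatty acid genes, 0.69 for fatty acid genes with regulators and 0.36 for sterol genes with regulators, values that share the same arrays and are given as a description. In subclone 10 the means of the sterol, regulator and fatty acid genes were -0.21, -0.32 and -0.33, beside the -0.29 of all tested genes, and with that shift taken off they were 0.077, -0.034 and -0.042. Pairs of sterol genes had a median r of 0.45 over the subclones (83 of 91 pairs above 0, 91.2%). The median r was 0.15 for pairs of fatty acid genes (37 of 55, 67.3%). For pairs of a sterol and a fatty acid gene it was 0.35 (123 of 154, 79.9%). Over pairs of all tested genes the median r was 0.09, with 57.3% above 0.

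To ask which members differed together, every tested gene was regressed over the 10 subclones on a chosen gene with limma, and p-values were adjusted over all tested genes by the Benjamini-Hochberg method. The chosen genes were HMGCS1 for the sterol branch, SCD for the fatty acid branch, INSIG1, SREBF1 and SREBF2. IDI1 and FASN served as replacements, and SQLE was added after HMGCS1 was found to lie below the filter. In all, 233 relations between members were computed. After adjustment 0 members followed any of these 8 genes, and the counts below at an unadjusted p under 0.05 are therefore descriptions beside the share of all tested genes.

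INSIG1 was followed at an unadjusted p under 0.05 by 5 of 29 members, against 4.75% of all tested genes (0% after adjustment). All 5 slopes were positive: SCD, SC4MOL, SQLE, FDFT1 and DHCR7. SCD differed by 1.23 ± 0.22 log2 units per log2 unit of INSIG1 (SE; limma, adjusted p = 0.71), with r = 0.89 and rho = 0.87 (permutation p = 0.00051 and 0.0022). The 2 subclones farthest from the median of INSIG1 were 1, where both genes were lowest, and 8, where both were highest, and r was 0.71 without them. For SQLE r was 0.83, and 0.84 without these subclones, and for DHCR7 it was 0.70 in both cases. For SC4MOL r was 0.75, and 0.45 without subclones 1 and 8. SCAP had the opposite sign, with r = -0.67 and a slope of -0.31 ± 0.16 (SE; limma, adjusted p = 0.98). Without subclones 10 and 11, the arrays with the lowest upper quartiles, 8 members followed INSIG1 at an unadjusted p under 0.05 and 0 after adjustment. The share of all tested genes was not counted in that run.

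**Figure D3:**
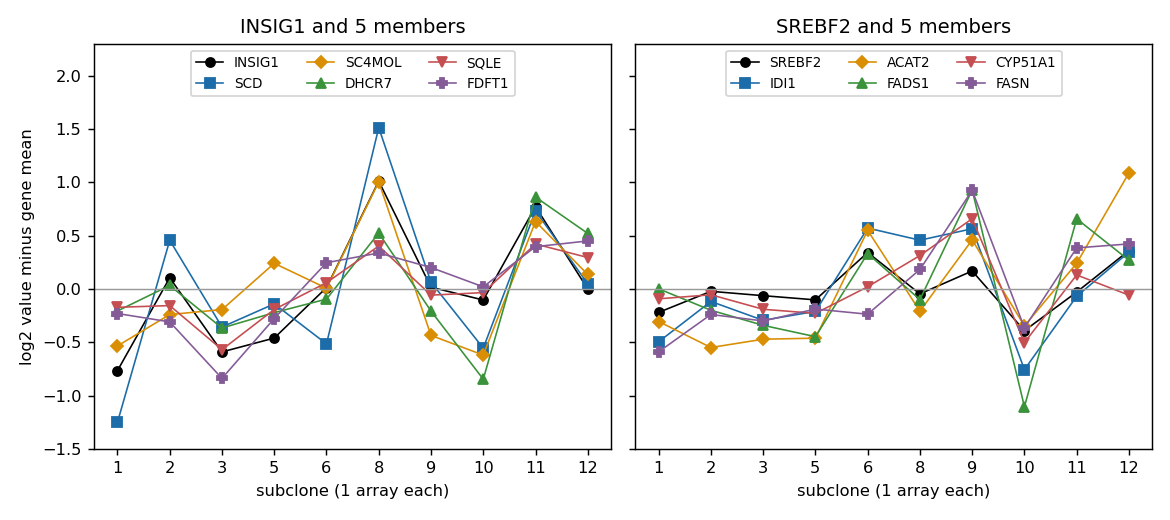
Log2 values minus the gene mean are drawn for 6 genes in each panel over the 10 subclones; lines only guide the eye, since subclones have no order. On the left, INSIG1, SCD, SC4MOL, DHCR7, SQLE and FDFT1 all lie above their means in subclones 8, 11 and, except for INSIG1, 12. On the right, SREBF2, IDI1, ACAT2, FADS1, CYP51A1 and FASN all lie above their means in subclone 9. They all lie below their means in subclones 2, 3, 5 and 10. Of all tested genes, 60.2% lie above their means in subclone 9 and 23.3% in subclone 10. In subclones 2, 3 and 5 these shares are 58.1%, 57.6% and 56.5%. The genes drawn with INSIG1 are those that followed it at an unadjusted p under 0.05. Those drawn with SREBF2 followed SREBF2 or IDI1 at that threshold. The choice was made from the same 10 arrays, so that a shared side is partly built in. The shares of all tested genes are therefore no test of it.

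SCD was followed at an unadjusted p under 0.05 by INSIG1, SC4MOL and DHCR7, 3 of 29 members (10.3%) against 5.55% of all tested genes (0% after adjustment), and by no other gene of the fatty acid branch. HMGCS1 was followed by 5 of 30 members (INSIG1, FDFT1, SQLE, SC4MOL and SCD), against 8.12% of all tested genes (0% after adjustment). Without subclones 8 and 11, the farthest from the median of HMGCS1, r was 0.75 for SQLE, 0.73 for FDFT1 and 0.54 for INSIG1, against 0.87, 0.79 and 0.79 with all 10. For SC4MOL it was 0.13 without them, against 0.63, and for SCD 0.12, against 0.59. The slope of SCD on HMGCS1 was 1.04 without subclone 8, against 1.86 with all 10. Over all tested genes only 33.8% had a positive slope on HMGCS1, whereas 13 of 14 sterol genes did. SQLE was followed by 7 of 29 members (FDFT1, INSIG1, DHCR7, ELOVL5, SC4MOL, SCD and MVD), against 5.62% of all tested genes (0% after adjustment). All 13 other sterol genes had a positive slope on it, against 41.6% of all tested genes.

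SREBF2 was followed at an unadjusted p under 0.05 by IDI1, ACAT2 and FADS1, 3 of 29 members (10.3%), close to the 6.48% of all tested genes (0% after adjustment). In sign, 14 of 14 sterol genes had a positive slope, against 72.4% of all tested genes. These signs rested in part on subclones 6 and 12. Without them r with SREBF2 was -0.68 for EBP, -0.0099 for MVD and -0.012 for FDPS. The other tested sterol genes kept a positive r, which for ACAT2 was 0.55, against 0.82 with all 10. IDI1 differed by 1.71 ± 0.41 log2 units per log2 unit of SREBF2 (SE; limma, adjusted p = 0.71), with r = 0.86 and rho = 0.84 (permutation p = 0.0012 and 0.0036), and r was 0.87 without subclones 6 and 12, the farthest from the median. The narrow range of SREBF2, 0.75 log2 units near the filter, makes these slopes steep. IDI1 itself was followed by 5 of 29 members (FADS1, ACAT2, CYP51A1, FASN and SREBF2), against 6.26% of all tested genes (0% after adjustment).

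FASN was followed by 8 of 29 members, against 9.56% of all tested genes (0% after adjustment). They were FADS1, CYP51A1, IDI1, NPC1, ACAT2, FDFT1, LSS and ACACA, and all 8 slopes were positive. Several of these relations rested on subclones 9 and 12, the farthest from the median of FASN. Without them r was -0.06 for ACACA, against 0.69 with all 10, and 0.35 for NPC1, against 0.67.

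SREBF1 gave a different picture. Only SCD (positive slope) and ELOVL5 (negative slope), 2 of 29 members, followed it at an unadjusted p under 0.05, against 26.1% of all tested genes, and 0 members did after adjustment, against 0.367%. A positive slope on SREBF1 was found for 4 of 14 sterol genes, against 65.7% of all tested genes. For SCD r was 0.58, and 0.08 without subclones 1 and 10, in which SREBF1 was lowest. SREBF1 and SREBF2 themselves correlated with r = 0.40, and with r = -0.55 without subclones 1 and 10.

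**Figure D4:**
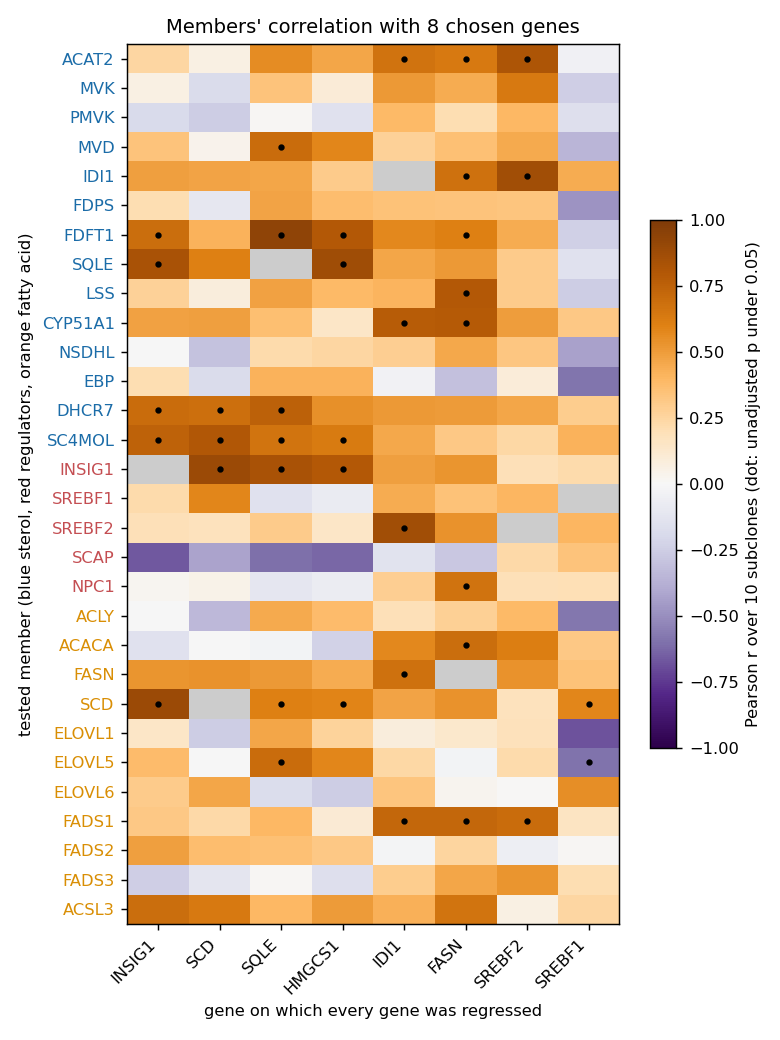
Colours give the Pearson correlation over the 10 subclones between each tested member (rows, by branch) and each of the 8 chosen genes (columns); dots mark an unadjusted p under 0.05 in limma, grey a gene with itself. The sterol rows are mostly positive in every column except SREBF1, and SCAP is negative for 6 of the 8 genes.

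Whether members followed the sterol gene more than the fatty acid gene was tested in 1 model with both HMGCS1 and SCD, each scaled to an SD of 1. These chosen genes were correlated (r = 0.59), and 0 of 29 members differed between the slopes after adjustment, against 0% of all tested genes. At an unadjusted p under 0.05, 5 members did, against 24.8% of all tested genes. ACLY, EBP and ELOVL5 had the larger slope on HMGCS1, and ELOVL6 and SREBF1 the larger slope on SCD. The widest of these differences was that of SREBF1, with slopes of -0.32 on HMGCS1 and 0.48 on SCD, a difference of -0.80 ± 0.26 (SE; limma, adjusted p = 0.11). For ELOVL6 the difference was -0.76 ± 0.22 (SE; limma, adjusted p = 0.089). With IDI1 and FASN in place of HMGCS1 and SCD, 0 members passed at an unadjusted p under 0.05, and the share of all tested genes was not counted.

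**Figure D5:**
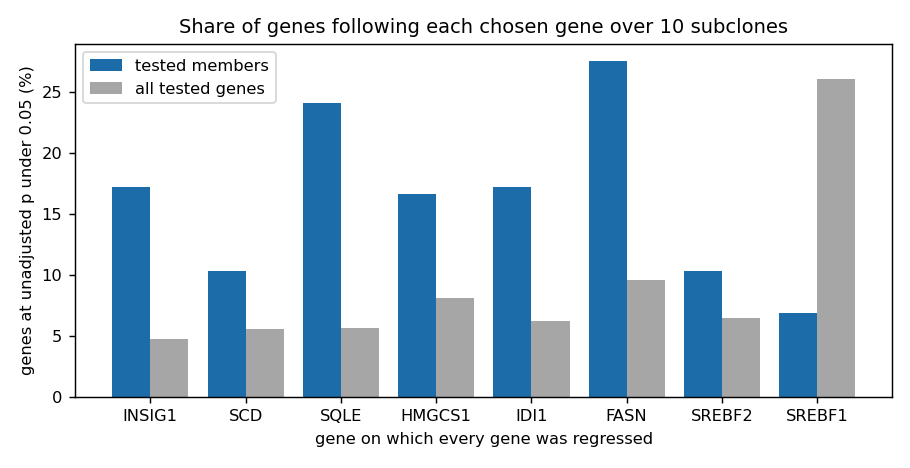
Bars give the share of tested members and of all tested genes that followed each chosen gene at an unadjusted p under 0.05. The members' share is above that of all tested genes for 7 chosen genes, for example 17.2% against 4.75% for INSIG1, and below it for SREBF1, at 6.90% against 26.1%.

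The promoters of genes that differed together are shown to set the sterol regulatory element and its common partner, the CCAAT box bound by NF-Y, beside the values. Sequences are the 250 bases before the gene start from RefSeq (GRCh38.p14), matched for 29 of the 33 members; FASN, ACAT2, FDFT1 and SQLE are named only. Capitals mark the sterol regulatory element (by its core CACNCCAC), the CCAAT box and the E-box CACGTG, each searched on both strands, so that GTGGNGTG and ATTGG are the reverse forms. None of these motifs contains another, but a forward and a reverse CCAAT box can overlap, as in IDI1, and are then counted as 2. Of several starts of a gene, the one with most CCAAT boxes is shown.
INSIG1 (chr7:155297628-155297877, plus strand): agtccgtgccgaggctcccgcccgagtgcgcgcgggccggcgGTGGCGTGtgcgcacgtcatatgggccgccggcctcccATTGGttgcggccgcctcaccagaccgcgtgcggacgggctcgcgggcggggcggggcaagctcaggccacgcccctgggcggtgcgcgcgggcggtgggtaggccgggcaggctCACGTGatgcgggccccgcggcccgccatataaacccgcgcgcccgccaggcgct
SCD (chr10:100346983-100347232, plus strand): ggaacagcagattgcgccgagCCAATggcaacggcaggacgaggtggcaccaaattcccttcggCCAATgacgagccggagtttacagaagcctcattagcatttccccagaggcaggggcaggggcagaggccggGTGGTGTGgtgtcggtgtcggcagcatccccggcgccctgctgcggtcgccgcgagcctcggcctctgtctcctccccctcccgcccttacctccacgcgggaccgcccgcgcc
SC4MOL (chr4:165327419-165327668, plus strand): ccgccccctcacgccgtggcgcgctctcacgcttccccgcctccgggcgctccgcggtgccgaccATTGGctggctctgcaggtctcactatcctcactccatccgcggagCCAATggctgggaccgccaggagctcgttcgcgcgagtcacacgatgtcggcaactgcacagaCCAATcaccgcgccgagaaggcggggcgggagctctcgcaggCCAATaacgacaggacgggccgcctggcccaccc
DHCR7 (chr11:71448394-71448643, minus strand): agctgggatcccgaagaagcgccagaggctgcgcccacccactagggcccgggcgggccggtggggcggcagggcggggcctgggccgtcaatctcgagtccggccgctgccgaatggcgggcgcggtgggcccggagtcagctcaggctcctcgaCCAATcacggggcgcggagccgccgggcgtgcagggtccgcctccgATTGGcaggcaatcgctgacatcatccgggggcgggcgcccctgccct
SREBF2 (chr22:41832855-41833104, plus strand): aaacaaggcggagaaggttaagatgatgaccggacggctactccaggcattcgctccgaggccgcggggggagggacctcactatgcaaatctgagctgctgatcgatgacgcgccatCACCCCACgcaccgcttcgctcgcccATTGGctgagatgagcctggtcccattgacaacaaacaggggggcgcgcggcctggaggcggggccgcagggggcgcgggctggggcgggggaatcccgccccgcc
IDI1 (chr10:1048887-1049136, minus strand): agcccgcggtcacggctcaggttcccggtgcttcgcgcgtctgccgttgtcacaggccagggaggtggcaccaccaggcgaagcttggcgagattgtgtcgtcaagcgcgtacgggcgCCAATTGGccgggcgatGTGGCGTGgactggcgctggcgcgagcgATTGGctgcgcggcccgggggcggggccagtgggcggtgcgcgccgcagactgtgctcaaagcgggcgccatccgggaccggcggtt

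INSIG1 and SCD, which differed together, each hold 1 core element and at least 1 CCAAT box in this window, whereas SC4MOL and DHCR7, which followed them, hold 4 and 2 CCAAT boxes and no core element. SREBF2 and IDI1 also hold 1 core element each, with 1 and 3 CCAAT boxes. These counts are for the starts shown. The other starts of IDI1 hold no core element, and the other start of DHCR7 holds no CCAAT box. At least 1 CCAAT box was found in 20 of 29 members (69.0%), against 42.7% of 8484 genes of the table with a promoter. A core element was found in 6 of 29 members (20.7%), against 7.01%, and the E-box in 4 of 29 (13.8%), against 10.8%. The GC box GGGCGG (reverse form CCGCCC, not capitalised above) was found in 27 of 29 members (93.1%), against 68.2%. Counted per promoter, since some genes have several starts, the CCAAT box was in 24 of the members' 38 promoters (63.2%), against 32.0% of all 35116 promoters. By the same count the core element was in 6 of 38 (15.8%), against 4.87%, the E-box in 5 of 38 (13.2%), against 6.34%, and the GC box in 33 of 38 (86.8%), against 42.6%. The background of all promoters also takes in genes outside the table, so that the 2 counts differ in more than the unit. Per gene over all 27305 genes, the CCAAT box was in 37.0% and the GC box in 46.2%. Such matches describe letters in a window and do not show binding.

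Other genes of these pathways were taken from lists of their roles, not by how they differed. Among 5 tested genes of sterol synthesis outside the members, LBR, a lamin B receptor with sterol reductase activity, was at 5.13 in subclone 11, 6.57 in subclone 10 and between 7.25 and 8.13 in the other 8. Of 9 tested regulators outside the members, INSIG2, the relative of INSIG1, had the largest SD (0.81), with 6.60 in subclone 1, a median of 7.81 and 8.92 in subclone 2. INSIG1 and INSIG2 were both lowest in subclone 1, but in subclone 11, where INSIG1 was second highest, INSIG2 was at 7.54. Among 8 tested genes of sterol uptake and transport, the cholesterol exporter ABCA1 spanned 7.85 (subclone 1) to 9.71 (subclone 11) and was the only one to follow INSIG1 at an unadjusted p under 0.05 (slope 0.71 ± 0.24, SE; limma, adjusted p = 0.98). TMEM97, a sterol-regulated membrane protein, spanned 6.03 (subclone 10) to 8.14 (subclone 12) and followed SREBF2 (slope 2.11 ± 0.52, SE; limma, adjusted p = 0.71). Among 13 tested genes of fatty acid metabolism, the acyl-CoA synthetase ACSL1 spanned 5.39 (subclone 10) to 7.65 (subclone 5), the fatty acid binding protein FABP5 6.65 (subclone 9) to 8.35 (subclone 2), and PTPLA, a dehydratase of chain elongation, from 7.60 in subclone 1 to 9.11 in subclones 2 and 6. Of these 35 genes, 1 (2.86%) followed INSIG1 at an unadjusted p under 0.05, against 4.75% of all tested genes, and 5 (14.3%) followed SREBF2, against 6.48%. SREBF1 was followed by 9 (25.7%), 8 with a positive slope, against 26.1% of all tested genes. ACSL1, INSIG2 and PTPLA were among these 8. Of the 35 genes, 0 followed any of the 8 chosen genes after adjustment.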

How the data were processed

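Per gene symbol and array there was 1 log2 value, made by the authors with RMA (background correction, quantile normalization and summary of probes), per the submitters' processing notes. Its version, the array annotation and the joining of probe sets were not given in the sources used here. Arrays hold no counts, so their number limits the precision. The members and lists were chosen with earlier results of these data known.

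Genes with a highest value of at least 5.00, the median of the table, were tested. Variances and slopes were fitted across all 7095 such genes in limma 3.58.1 (R 4.3.3, trended and robust prior), 2-sided for slopes, with Benjamini-Hochberg adjustment and a threshold of 0.05. Correlations used 100000 permutations, 2-sided, and their p-values were not adjusted for the number or choice of pairs. Permutations and limma fits both treat the subclones as independent of each other. Subclones 2, 3 and 5, whose sterol genes lay low together, may not be, in which case these p-values are too small. No run left out subclones 2, 3 and 5 together. The fits were tested on simulated data. HMGCS1, chosen as the sterol gene to regress on, lay below the filter and was kept as such. For named genes, the 6 largest SDs per branch, the chosen genes and those past a test or standing apart were described in full. Outside the members, genes with the 3 largest SDs per list were named, but not every gene this picks is reported here. Member symbols were matched to RefSeq (GRCh38.p14), 31 directly and 2 through an older name. The alternatives were other filters, scalings, priors, chosen genes and the omission of each subclone.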

Additional observations from a re-analysis of the deposited data

Results flagged for a closer look

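In 2 of the 33 members (6.06%) 1 subclone stood apart by Dixon's criterion for 10 values, a gap above 0.466 of the whole range, beside 12.5% of all tested genes. Chance flags about 1 group in 20. FADS2 was at 6.12 in subclone 11, with the nearest other subclone at 4.90, and this gap was 0.678 of its range. The other 9 values of FADS2 lay below the table's median, and the neighbouring genes FADS1 and FADS3 did not stand apart in subclone 11. NPC1 was at 10.65 in subclone 9, with the nearest other at 9.92, a gap of 0.559 of its range. Subclone 9 had the highest value of all 10 for 25.8% of tested genes. The part of the arrays in either value was not tested, since each subclone has 1 array.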

How the results depend on the processing

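The counts of members past a test after adjustment, for the variance test, for the slopes on HMGCS1, SCD, INSIG1, SREBF1, SREBF2 and SQLE and for the slope contrast, were 0 in every alternative run, with 1 exception. The chi-square test of variances called 3 members. Leaving out each subclone in turn gave 0 to 0 members for each of these counts. Taking the median deviation of all tested genes off each array (chosen after seeing the data) moved the branch levels of subclone 10 by more than the SD between subclones, to 0.077 for sterol genes, -0.034 for regulators and -0.042 for fatty acid genes, because that array lies low for most genes. The other branch levels stayed within that SD. At an unadjusted p under 0.05, leaving out 1 subclone moved the count of members following INSIG1 (5) between 4 and 7, SCD (3) between 2 and 4, HMGCS1 (5) between 3 and 6 (3 without subclone 11), SREBF2 (3) between 3 and 6 (6 without subclone 6), SQLE (7) between 4 and 9 (4 without subclone 11) and SREBF1 (2) between 0 and 4 (0 without subclone 1, 2 or 6 and 4 without subclone 12). Without subclones 10 and 11 (also chosen after seeing the data) the counts were 8 for INSIG1 and 5 for SREBF2. Quantile normalization of the gene values gave 8 for HMGCS1, 11 for SQLE and 3 for the slope contrast, and subtracting array medians gave 9 for the contrast. The share of all tested genes was not counted in these runs, so the larger counts cannot be read as particular to the members. The cause of these shifts was not tested. Slopes moved in size over the filters, scalings and omissions, for SCD on HMGCS1 between 1.04 and 2.64 and for NPC1 on FASN between 0.10 and 0.64. No paired analysis was possible because there is 1 group with 1 array per subclone.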

Other observations

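Read by subclone, the members were spread as follows. Subclone 1 had the lowest value for 6 of 30 tested members (INSIG1, SREBF1, NPC1, FASN, SCD and ACSL3), beside 7.47% of all tested genes, and for HMGCS1 below the filter, although it had the highest value for PMVK. Of the other pathway genes, INSIG2, ABCA1 and PTPLA were also lowest in subclone 1. Subclone 9 had the highest value for 8 of 30 members, beside 25.8% of all tested genes, and subclone 10 the lowest value for 9 of 30, beside 31.8%. Subclone 12 had 24 of 30 members above their means, beside 53.8% of all tested genes. These counts describe single arrays and were not tested.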
